A study of Mus musculus with 63 samples.

Results

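The genes described here encode the proteins of the cytosolic ribosome. They are the 87 of 20183 listed genes whose symbol starts with Rpl or Rps and a digit, together with Rplp0, Rplp1, Rplp2 and Rpsa, and without the S6 kinases and the named pseudogenes. Of these, 78 are ribosomal protein genes proper, 43 of the large subunit, 32 of the small subunit, among them the retrotransposed copy Rps27rt, and 3 of the stalk, while 8 are relatives that carry an l or l1 after the number and 1, Rps19bp1, encodes a protein that binds Rps19 and is no part of the ribosome. The rule also takes in Rps4l, which the GENCODE M21 annotation lists as a transcribed processed pseudogene, and it leaves out Fau, whose product carries a ribosomal protein fused to a ubiquitin-like protein.

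Somata were sucked into a pipette in layer 2/3 of the primary visual cortex of anesthetized wild-type C57BL/6 mice of 70 days, after calcium imaging with Cal-520 AM had shown whether the cell responded to light. Smart-seq2, which copies full-length mRNA of 1 cell and amplifies it by PCR, was applied to 46 light-sensitive (LS) and 17 non-light-sensitive (NS) cells. Filters built after the study's description and applied to the deposited values left 35 LS and 12 NS cells, which are used below unless all cells are named. Marker scores removed 13 cells and the mitochondrial limit 0. The study kept more LS cells than are used here, so both sets of cells are not the same. The labels name no mouse for a cell, so each group was treated as 1 sample, no test was made, and every SD is the spread between cells.

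A ribosome joins ribosomal RNAs, which are not in the table, with its proteins, and the mRNAs of these proteins are among the most abundant of nearly every cell. Many of them start with a C and a run of pyrimidines, the TOP motif, through which mTOR and Larp1 set their translation. Neurons keep ribosomes in the soma and also in dendrites and axons, while the samples here hold somata. FPKM are relative to the library, so they give no amount of RNA in a cell.

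Of the promoter windows that RefSeq gives on GRCm38.p6 for 66 of these genes, 14 of 78 (17.9%) had a C at the transcript start followed by at least 4 letters that were all C or T on the sense strand, and 823 of 32851 windows of all genes (2.51%) had one. The windows of 4 genes are printed to show the tract where the annotated start has it. Each runs from 15 bases before the start, 5′ to 3′, and the capitals mark the tract.
Rpl14, chr9:120571502-120571531, plus strand: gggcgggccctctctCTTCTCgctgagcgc
Rps27, chr3:90213634-90213663, minus strand: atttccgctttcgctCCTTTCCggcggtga
Rps6, chr4:86857353-86857382, minus strand: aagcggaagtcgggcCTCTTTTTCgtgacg
Rplp2, chr7:141447636-141447665, plus strand: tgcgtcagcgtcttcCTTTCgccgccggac
A match describes the letters at the annotated start, and no match says only that the annotated start does not have them.

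Libraries of the 2 groups differed in more than these genes. Reads recovered on the listed genes ranged from 361849 to 2491290 in LS cells (median 867952) and from 147316 to 879019 in NS cells (median 314238). Odorant, vomeronasal and taste receptor genes, which these neurons should not transcribe, stood at a mean level of 3.84% ± 5.37 (SD, n = 35 LS cells) of the level that an even spread of reads over exons would give, and at 51.3% ± 50.7 (n = 12 NS cells). The level was 10% or more in 4 of 35 LS and 9 of 12 NS cells. In NS_12, the NS cell with the most reads, 90.7% of the values from 1 to 19 reads were even numbers, against 22.3% to 47.2% in the other 62 cells. Whether its reads were counted in another way was not tested, so its depth is uncertain. The next of the 12 NS cells was NS_14 with 662471 reads. The part of depth and of this background in the results below was not tested, and values without NS_12 or without cells of a high receptor level are given where they turn a result.

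In LS cells nearly the whole set was detected. A cell had 79.6 ± 3.07 (SD, n = 35) of the 87 genes above 1 FPKM (fragments per kilobase of exon per 1000000 reads), with a median of 80, a lowest value of 69 in LS_43 and a highest of 83. NS cells had 52.8 ± 22.5 (n = 12), with a median of 60, a lowest value of 19 in NS_15 and a highest of 79 in NS_9. The 12 NS cells held 19, 27, 28, 31, 39, 54, 66, 68, 72, 75, 76 and 79 of the genes. Of the 35 LS cells, 34 had at least 70 genes (97.1%, exact 95% binomial limits 85.1% and 99.9%) whereas 4 of the 12 NS cells reached that number (33.3%, 9.92% to 65.1%). The difference of the means was 26.8 genes, and the ranges overlapped from 69 to 79. The intervals cover the count of cells only, since cells of 1 mouse are not independent.

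**Figure D1:**
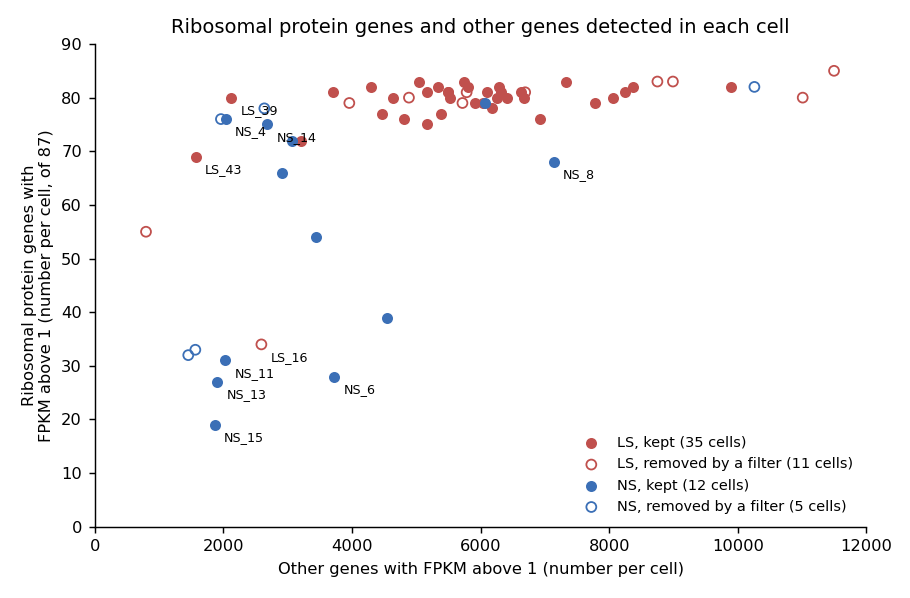
Each point is 1 cell, with the number of other genes above 1 FPKM on the x axis and the number of ribosomal protein genes above 1 FPKM on the y axis; filled points passed the filters and open points did not. Filled LS points lie between 69 and 83 genes and filled NS points between 19 and 79, while open points reach from 32 to 85.

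Cells with like numbers of other genes differed widely in these genes. Other genes above 1 FPKM numbered 5783 ± 1677 in LS and 3455 ± 1698 in NS cells, which is 28.8% and 17.2% of those listed, while the ribosomal protein genes stood at 91.5% and 60.7%. Among LS cells the other genes ranged more than 6-fold, from 1571 in LS_43 to 9898 in LS_4, and the ribosomal protein genes only from 69 to 83. LS_39 had 2127 other genes and 80 ribosomal protein genes, and NS_4 had 2042 and 76. At nearly the same number of other genes, NS_11 with 2032 had 31, NS_13 with 1907 had 27 and NS_15 with 1865 had 19. NS_8 had 7143 other genes, more than all but 6 LS cells had, and 68 ribosomal protein genes, with a receptor gene level of 93.2%. Over the 47 cells Pearson's r between both counts was 0.55 and Spearman's rho 0.55. Within LS cells r was 0.49 and fell to 0.28 without LS_43 and LS_4, and within NS cells it was 0.39 and fell to 0.07 without NS_8 and NS_9. The points of one correlation share depth, since both counts come from the same library.

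Cells of like depth differed too. LS_11 had 75 of the genes at 361849 reads, NS_4 had 76 at 351457 and NS_9 had 79 at 417712, whereas NS_13 had 27 at 368269 and NS_16 had 54 at 611079. Every cell was also thinned to 200000 reads, which left out 4 of the 12 NS cells. Then 78.6 ± 3.34 genes had a read in LS cells (n = 35) and 57.9 ± 21.4 in NS cells (n = 8). Unthinned, the values were 80.0 ± 2.73 and 53.8 ± 22.6 over all 47, so the 2 NS means cover unlike cells. The thinned NS_4, NS_8, NS_9, NS_11, NS_12, NS_13, NS_14 and NS_16 had 76, 71, 79, 31, 68, 30, 76 and 57 genes with a read before thinning. After it they had 76, 70, 78, 29, 62, 24, 74 and 50, respectively. Over the 47 cells the number of ribosomal protein genes followed the number detected of 18 genes that nearly all cells use, such as Actb and Gapdh, with r of 0.88, and 0.79 without NS_15 and NS_6. With the number detected of 9 listed neuron markers r was 0.54 over the 47 cells, and with the receptor gene level it was -0.75. Spearman's rho over the 47 cells was 0.56, 0.58 and -0.41 for the 3 measures in this order. Within the NS cells these r were 0.78, -0.01 and -0.56, respectively. Within the LS cells they were 0.47, 0.36 and -0.07. The value of 0.47 fell to 0.21 without LS_43 and LS_4, and 0.36 fell to 0.08 without LS_43 and LS_13. Values over the 47 cells thus mix 2 groups that differ in these measures. LS cells had 17.2 ± 0.747 and NS cells 13.1 ± 3.15 of those 18 genes above 1 FPKM, and the neuron markers detected were 7.97 ± 2.08 and 3 ± 2.59. NS_13 and NS_16 had 6 and 8 of the neuron markers together with 27 and 54 ribosomal protein genes, while NS_4 and NS_14 had 1 each together with 76 and 75.

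The filters removed 11 LS and 5 NS cells. LS_16, removed for astrocyte genes, had 34 ribosomal protein genes at 772059 reads and a receptor gene level of 0.0878%. Its reads and receptor gene level lie within the range of the LS cells kept, while its 34 genes lie below their range of 69 to 83. LS_2, removed for few genes, had 55 with 799 other genes. NS_5 and NS_10 had 32 and 33, and the other 3 removed NS cells had 76 to 82. Over all 63 cells the difference of the means was 23.4 genes.

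By means over cells, the amount of these mRNAs relative to the rest differed less than their detection. The 87 genes made up 3.85% ± 1.47 of the summed FPKM of an LS cell, with a lowest value of 1.72% in LS_24, a median of 3.55% and a highest of 10.1% in LS_39. In NS cells they made up 3.15% ± 2.55, from 0.773% in NS_15 over a median of 2.63% to 9.11% in NS_4. The difference of 0.70 percentage points lies within the spread between cells. The groups overlapped, with 5 of the 12 NS cells below the lowest LS cell and none above the highest. It turned to -0.13 among the 31 LS and 3 NS cells with a receptor gene level under 10%, and to -0.90 among cells with at least 350000 reads other than NS_12 (35 LS and 5 NS). Summed FPKM of the genes was 11652 ± 6068 in LS and 9619 ± 8987 in NS cells, a log2 ratio of 0.28, which became -0.045 over all 63 cells and -0.28 among the cells with at least 350000 reads. By medians the groups were further apart, with summed FPKM of 10917 in LS and 5569 in NS cells. The median share of recovered reads was 1.63% in LS and 0.921% in NS cells. A share gives no amount of mRNA in a cell.

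**Figure D2:**
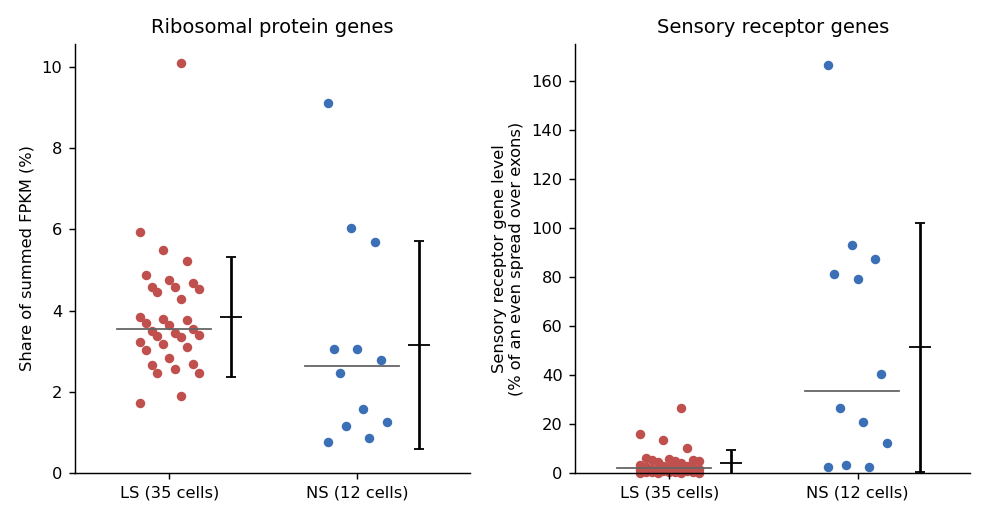
Points are cells that passed the filters, the grey line is the median, and the black bar is the mean with its SD. The left panel shows the share of summed FPKM that ribosomal protein genes take (%), with overlapping groups and the highest cells at 10.1% (LS) and 9.11% (NS); the right panel shows the sensory receptor gene level as a percentage of an even spread, which is under 10% in 31 of 35 LS and 3 of 12 NS cells.

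LS_39 and NS_4, the cells with the highest shares, had few other genes (2127 and 2042). Among LS cells the share ran against the number of neuron markers detected, with r of -0.59 over 35 cells and -0.75 without LS_43 and LS_13. LS_39 also had the highest level of Fos, an immediate-early gene, at 12613 FPKM, and r between Fos and the share fell from 0.70 to 0.29 when LS_39 and LS_15 were left out. LS cells with more Slc17a7 and Neurod2 than Gad1 and Gad2, the markers of excitatory and inhibitory neurons, had a share of 3.61% ± 1.04 (n = 30) and 80.0 ± 2.53 of the genes above 1 FPKM. The 4 LS cells with the opposite balance had 5.52% ± 3.10 and 79.5 ± 2.52, and LS_39 is one of them.

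Of the 87 genes, 51 (58.6%) were above 1 FPKM in every LS cell, a mark that 185 of all 20179 genes with a single row (0.917%) reached, so they were 27.6% of the genes that did. In at least 9 of 12 NS cells 32 of the genes (36.8%) were above 1 FPKM, against 149 of all genes (0.738%). Of the 18 genes used by nearly all cells, 14 (77.8%) reached the LS mark and 11 (61.1%) the NS mark. Of 31 translation factors 3 and 4 did, and of 76 mitochondrial ribosomal protein genes 0 reached either mark. Counting any read, 35 of the 87 were found in 9 or more NS cells, 39 in 6 to 8 and 13 in 5 or fewer. Rps29, a small zinc-binding protein of the small subunit, was the 1 gene of the set with a read in all 12 NS cells, and 20 of all listed genes had one. Rps27 and Rps3, both of the small subunit, followed with 11 NS cells.

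**Figure D3:**
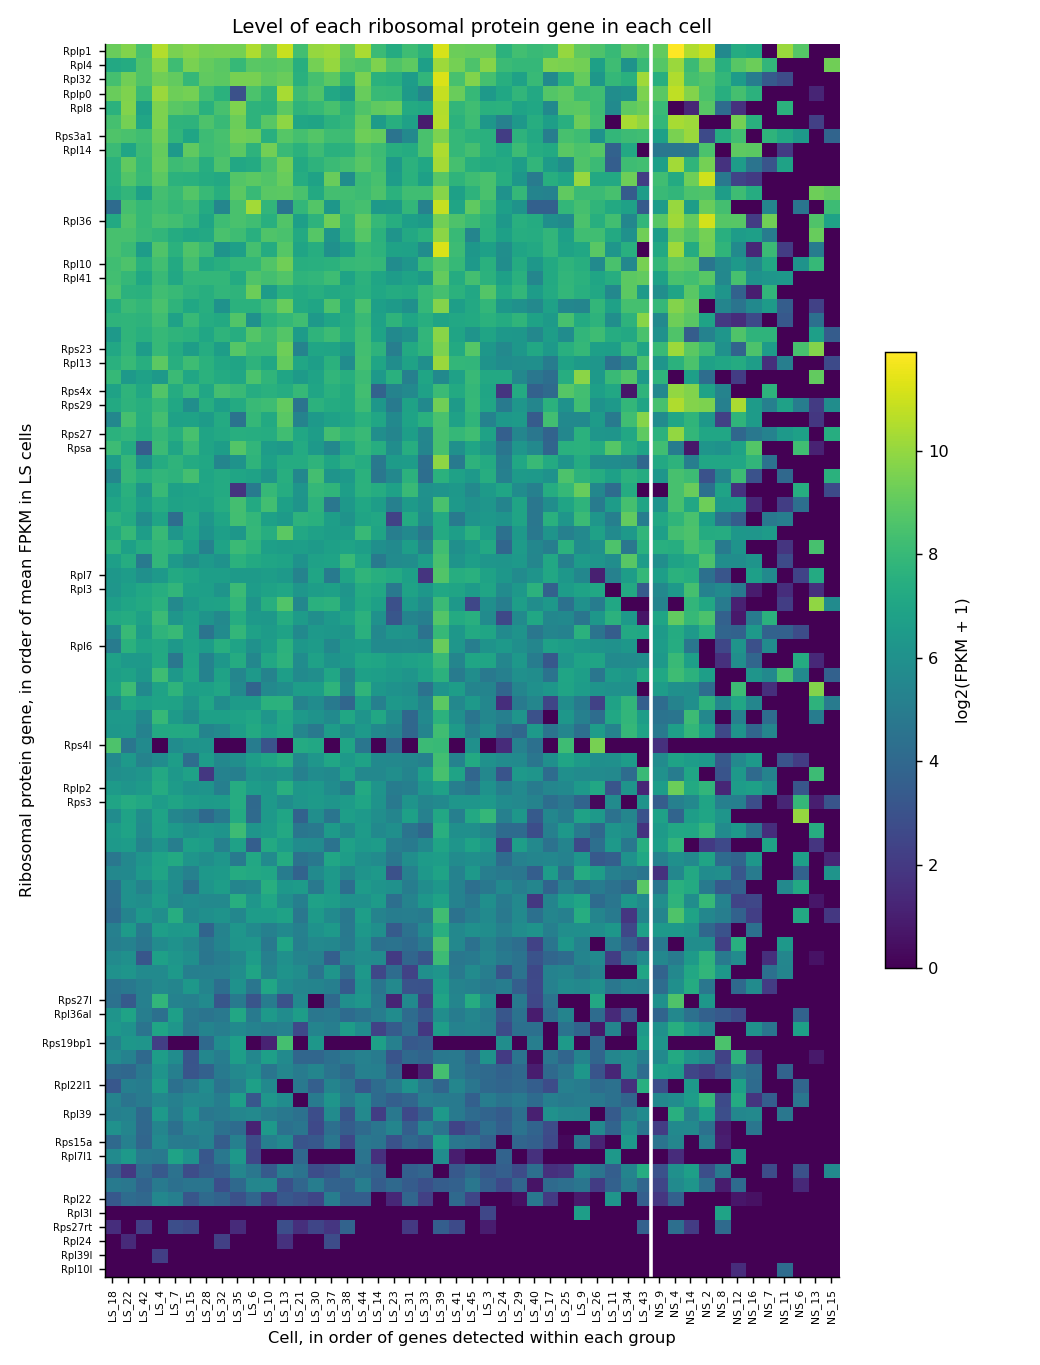
Rows are the 87 genes in order of mean FPKM in LS cells, some of them labelled, columns are the 47 cells in order of genes detected, LS to the left of the white line, and colour is log2(FPKM + 1). Gaps in LS cells gather in the lower rows and in the row of Rps4l, while in the NS cells at the right end they run through the rows of the highest genes as well.

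The gene with the highest level was Rplp1, one of the acidic stalk proteins through which elongation factors reach the ribosome. Its FPKM was 694 ± 500 in LS cells, from 161 over a median of 571 to 2303 in LS_39. In NS cells it was 808 ± 1156, from 0 in 3 cells over a median of 295 to 3832 in NS_4. The log2 ratio of means, LS over NS, was -0.22 and became 0.38 without NS_4. The other stalk genes were Rplp0, the protein that anchors the stalk, with a mean FPKM of 407 ± 391 (LS) and 345 ± 513 (NS), and Rplp2 with 73.0 ± 44.6 and 112 ± 169. Rpsa, the small subunit protein also known as a laminin receptor precursor, stood at 151 ± 108 and 109 ± 147. For all 4 the difference of the means was below the SD of either group.

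Next to Rplp1 and Rplp0, the highest genes of LS cells included Rpl4 at 470 ± 274 FPKM, Rpl32 at 451 ± 419, Rpl8 at 365 ± 283, Rps3a1 at 306 ± 187 and Rpl14 at 302 ± 241. In NS cells, in the same order, they stood at 384 ± 336, 227 ± 406, 77.1 ± 146, 238 ± 335 and 118 ± 200. Of those named, Rpl8 and Rpl14 had means at least 2-fold apart. Over the 77 genes proper with a mean of at least 1 FPKM, log2 levels of LS and NS cells had an r of 0.88 across genes, which are not independent.

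The order of levels rests on the gene length used. FPKM of the file divide by all exons of a gene, which for Rplp2 are 4.92 times and for Rps15a 9.78 times the length of the main transcript, and a long annotation lowers the FPKM. Per length of the main transcript Rplp1 stayed first, while Rpl41 moved from place 17 to 2, Rpl10 from 16 to 3, Rpl13 from 23 to 4 and Rps27 from 28 to 5. The quartiles of the 77 genes then lay 1.79-fold instead of 3.12-fold apart. Levels may also be split with copies. 77 of the 87 genes had at least 1 stretch of 100 bases in common with a transcript of another gene, 38 of them over at least 50% of their length, and exons of 39 genes overlapped another gene. How reads shared with a copy were counted is not given for these genes, so values of such genes are uncertain.

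Rpl24, of the large subunit, had 19 reads in 4 of 35 LS cells and 0 of 12 NS cells, where the exact interval reaches 26.5%. Its transcript shares 80.1% of its stretches with Gm28037, a neighbouring locus whose exons cover 47.0% of its own. At the depth of the NS cells 3 reads would correspond to a level above that of the LS cells, so a difference was not detectable.

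Group means gave few differences of 2-fold. Of the 85 genes whose mean reached 1 FPKM in either group, 15 were at least 2-fold higher in LS cells (17.6%, against 33.8% of all 16760 genes) and 4 in NS cells (4.71%, against 38.9% of all genes). Of the latter 4, 2 were ribosomal protein genes proper, Rps29 and Rpl36. The other 2 were the relatives Rpl10l and Rpl3l, with reads in few cells. The median log2 ratio was 0.41, against -0.20 over all genes. Of the 85, 60 had the higher mean in LS cells, against 7890 of all 16760 genes. For 84 of the 85 the difference of the means was below the larger SD, and no gene had groups that did not overlap. These last counts were not made over all genes, so they give no trait particular to the set.

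On a log scale the same genes looked different. By the mean of log2(FPKM + 1), 75 of the 85 genes were at least 1 unit higher in LS cells (88.2%, against 27.2% of all genes), and 0 were in NS cells (5.77% of all). The median difference was 2.17 units, against 0.26 over all genes. By this rule 17 of 18 genes used by nearly all cells were higher in LS cells (94.4%), with a median difference of 3.40 units. So were 9 of 9 neuron markers and 27 of 31 translation factors (87.1%), so the high share is not particular to the set. Of mitochondrial ribosomal protein genes 53 of 76 were (69.7%), of ribosome assembly genes 14 of 25 (56%) and of inhibitory markers 0 of 5. By medians over cells 58 of 81 genes were at least 2-fold higher in LS cells (71.6%, against 90.8% of all 4987 genes with such a median), and 0 were in NS cells (4.83% of all). NS means rest on few cells, since the highest NS cell held 39.7% of the summed NS FPKM of a gene in the median (10.9% in LS), and that cell was NS_4 for 33 genes, NS_2 for 14 and NS_14 for 14. Without NS_4, and likewise without NS_14, 27 genes in place of 15 had a mean 2-fold higher in LS cells. Without NS_4, 2 in place of 4 were higher in NS cells. The shares over all genes without these cells were not counted.

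**Figure D4:**
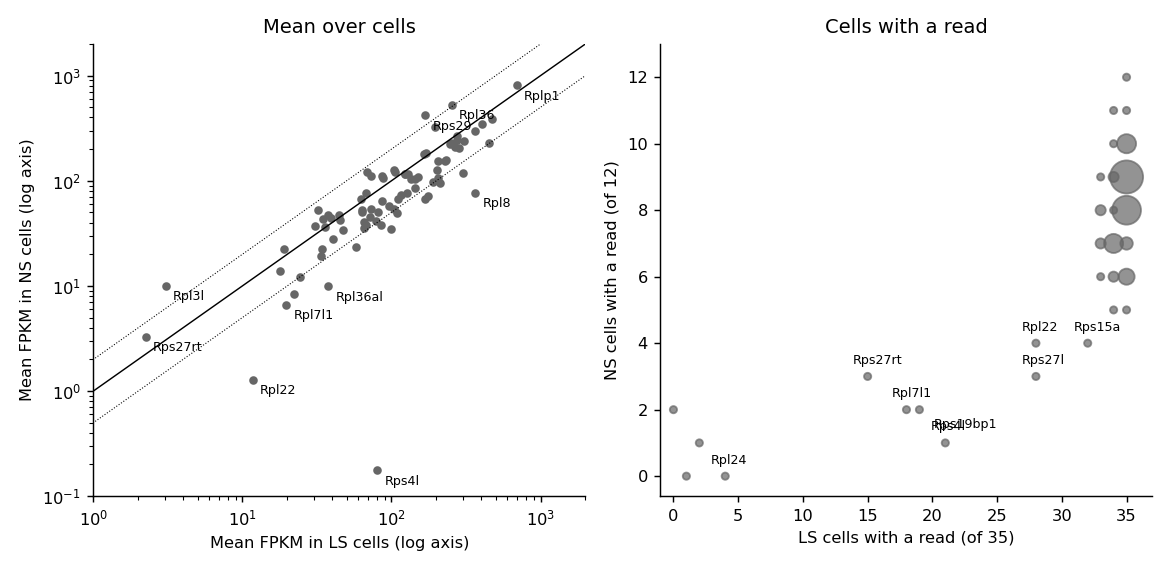
The left panel sets mean FPKM of LS cells (x axis) against that of NS cells (y axis) on log axes for genes with reads in both, with lines at equality and at 2-fold. The right panel sets the number of LS cells with a read against the number of NS cells with a read, with point area in proportion to the number of genes. Most genes lie near the line of equal means, between 6 and 10 NS cells, and Rps4l stands far below the line with a read in 21 LS cells and 1 NS cell.

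Rpl8, a large subunit protein near the peptidyl transferase centre, was among the genes with the widest gap. It had reads in all 35 LS cells, from 49.1 over a median of 291 to 1495 FPKM, and in 6 of 12 NS cells, with a median of 0.730 and a highest value of 446 in NS_2. The mean was 4.73-fold higher in LS cells, a log2 ratio of 2.24 that became 3.07 without NS_2, and NS_4, with 76 ribosomal protein genes, had none of it. Rpl22, a large subunit protein at the surface, was lower but parted in the same way. It was found in 28 LS cells, with a median of 8.14 and a highest value of 73.9 FPKM in LS_11, and in 4 NS cells, with 21 reads in all and a highest value of 11.5 FPKM in NS_4. Its log2 ratio of 3.19 became 5.06 without NS_4.

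Rpl36al, a relative of Rpl36a, had a mean FPKM of 37.5 ± 34.5 (LS) and 9.90 ± 13.3 (NS), and Rpl6, of the large subunit, at 99.8 ± 94.5 and 35.1 ± 52.6. The log2 ratios were 1.92 and 1.51, and leaving out any 1 cell kept them between 1.29 and 2.51, with Rpl6 at 2.11 and Rpl36al at 2.51 without NS_4. Rpl36al shares 59.02% of its stretches with Gm49383, which overlaps it.

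On the NS side Rps29 had a mean of 421 ± 528 FPKM in NS and 169 ± 133 in LS cells. The 12 NS cells ranged from 3.26 over a median of 101 to 1419 in NS_4, and 4 further NS cells were above 300, so the group parted into high and low cells while LS cells ran from 23.1 over a median of 148 to 646. The mean was 2.49-fold higher in NS cells, yet the median was higher in LS cells, and the log2 ratio moved from -1.32 to -0.97, under 2-fold, without NS_4. Rpl36, of the large subunit, was at 529 ± 611 in NS and 253 ± 150 in LS cells. Its median was higher in NS cells too, 439 against 239 FPKM, 2 of 12 NS cells had none of it, and the log2 ratio of -1.07 became -0.59, under 2-fold, without NS_2, where it was the highest gene of the set. Rps23, at the decoding site, was at 325 ± 357 and 197 ± 158, with medians of 270 and 147.

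The relatives of ribosomal proteins are given beside their parent genes. Rps4l is a copy of Rps4x, a small subunit protein encoded on the X chromosome. It lies at chr6:148354656-148355598, plus strand (GRCm38), and over 783 bases aligned to the coding sequence of Rps4x, 79.9% were identical. A stretch of the coding sequence, bases 475 to 534 of Rps4x, is printed with its counterpart, with the 20 differing bases in capitals. It was chosen as the 60 bases with the most differences, so it is less alike than the whole alignment.
Rps4x: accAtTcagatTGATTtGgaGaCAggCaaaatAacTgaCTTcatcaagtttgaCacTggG
Rps4l: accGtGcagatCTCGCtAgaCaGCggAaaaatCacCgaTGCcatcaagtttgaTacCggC

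Rps4l was absent from some LS cells and abundant in others. It had 3125 reads in 21 of 35 LS cells, with 0 in 14 cells, a median of 20.05 FPKM and a highest value of 707 FPKM in LS_26, where it was the highest gene of the set. The 12 NS cells had 1 read, in NS_9. In pooled reads the log2 ratio was 8.59, with a counting interval of 6.12 to 13.9. Rps4x was at 170 ± 111 FPKM in LS and 184 ± 343 in NS cells, and r between Rps4l and Rps4x over LS cells was 0.05. NS_14 and NS_4 had 1027 and 685 reads of Rps4x and 0 of Rps4l, as had LS_32 with 1232 reads of Rps4x. Rps4l exceeded Rps4x in 3 LS cells by reads and in 5 by FPKM. Of the removed cells, 5 of 11 LS and 2 of 5 NS had reads of it, with 58 reads in NS_17. The labels do not say which cells shared a mouse, so it was not tested whether the cells with Rps4l came from the same mice.

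**Figure D5:**
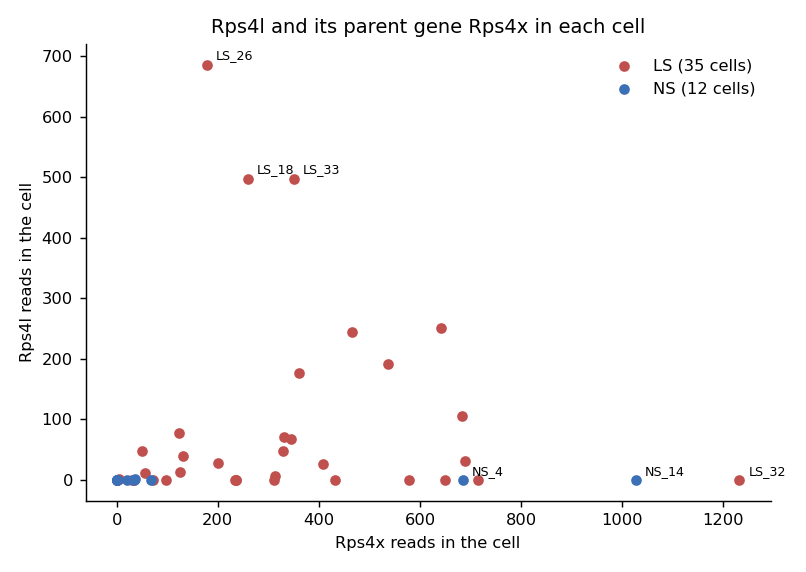
Each point is 1 cell that passed the filters, with Rps4x reads on the x axis and Rps4l reads on the y axis. LS_26 had 686 Rps4l and 178 Rps4x reads, and LS_32 had 0 and 1232.

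Other relatives with reads in many LS cells were Rps27l, which p53 induces, in 28 LS and 3 NS cells and Rpl22l1 in 34 LS and 5 NS cells. Rps27l was at 39.1 ± 52.2 and 44.5 ± 113 FPKM, the latter with 73.8% from NS_4, beside 166 ± 114 and 180 ± 273 of Rps27. Rpl22l1 was at 33.5 ± 34.6 and 19.3 ± 37.2, above Rpl22 at 11.7 ± 15.2 and 1.28 ± 3.32. Per length of the main transcript Rpl22l1 was also above Rpl22 in LS cells, at 121 against 72.1. Rpl7l1 was found in 18 LS and 2 NS cells and 97.7% of its NS sum came from NS_12. Its log2 ratio of 1.57 became 6.88 without NS_12, while the parent gene Rpl7 was at 110 ± 74.98 in LS and 67.0 ± 73.9 FPKM in NS cells.

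The relatives known from testis or muscle were nearly without reads. Rpl10l had 0 reads in 35 LS cells and 8 in 2 NS cells, 6 of them in NS_11. With the floor of 3 reads over the LS group, that is at least 21.6-fold higher in NS cells in pooled reads. NS_11 had a receptor gene level of 87.5%, and whether these few reads belong to that background was not tested. Rpl39l had 2 reads, both in LS_4. Rpl3l, the relative of Rpl3 in striated muscle, had 98 reads in 2 LS cells and 65 in NS_8, and its log2 ratio of -1.72 became -6.16 without LS_9. NS_8 had a receptor gene level of 93.2%, and whether its Rpl3l reads belong to that background was not tested either. The parent genes Rpl10, Rpl39 and Rpl3 had means of 233, 30.8 and 109 FPKM in LS cells. Rps27rt, a retrotransposed copy whose 252 coding bases equal those of Rps27, had 37 reads in 15 LS and 6 in 3 NS cells, and reads of these 2 genes cannot be told apart over the coding part. Rps19bp1 was found in 19 LS and 2 NS cells.

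Levels of the set rose and fell together over LS cells, but loosely. Over the pairs of 84 genes, the median r of log2(FPKM + 1) was 0.23 over 35 LS cells, with quartiles of 0.07 and 0.39, and 84.5% of pairs were above 0. Over the 12 NS cells the median was 0.41. The same value over LS cells was 0.08 for translation factors, 0.06 for mitochondrial ribosomal proteins, 0.20 for the 18 genes used by nearly all cells and 0.64 for the neuron markers. The genes of a pair share library and depth. Without LS_39 the median was 0.21. Rplp1 followed the rest of the set most closely, with r of 0.85 to the mean of the others, and Rpl13 came next with 0.80, whereas Rps19bp1 had -0.14, Rpl23a -0.13, Rpl22l1 0.01 and Rps4l 0.07.

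The 10 other genes whose pattern was most like the mean of the set over LS cells, among 4719 genes above 1 FPKM in at least 50% of them, were Vamp8 (r of 0.73), Fth1 (0.73), Rps18-ps3 (0.71), Eef1a1 (0.71), Gm10036 (0.68), Ftl1 (0.68), Ifi27l2a (0.68), Gng5 (0.67), Arpc1b (0.64) and Gm10116 (0.63). Fth1 and Ftl1 encode the heavy and light chain of ferritin, and Eef1a1 encodes the elongation factor that brings tRNA to the ribosome. Rps18-ps3 is a copy of Rps18 with 78 reads in 21 LS cells. Fth1 was at 5872 ± 5472 FPKM in LS cells, above every gene of the set.

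Other genes of translation were counted by the same rule. Of 31 translation factors and other TOP genes with a mean of at least 1 FPKM, 10 were at least 2-fold higher in LS cells and 0 in NS cells (33.8% and 38.9% of all genes), with a median log2 ratio of 0.67. Eef1a1 had a mean FPKM of 562 ± 421 (LS) and 347 ± 339 (NS), with reads in all 47 cells. Eif4a1, the helicase of the initiation complex, was at 56.6 ± 47.0 and 12.1 ± 23.96. Fau, at 337 ± 210 and 278 ± 394, was on the level of the highest genes of the set.

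Of 25 genes of ribosome assembly and polymerase I, 12 were 2-fold higher in LS and 7 in NS cells. Ncl, nucleolin, was at 25.7 ± 19.4 and 5.92 ± 16.1 FPKM, while Fbl, the methylase fibrillarin, was at 33.9 ± 42.1 and 70.2 ± 117. Of 12 genes that signal to the ribosome, 3 were 2-fold higher in LS and 4 in NS cells, among them Rps6kb2, an S6 kinase, at 3.51 ± 5.55 and 31.7 ± 64.8. Of 76 mitochondrial ribosomal protein genes, 35 were 2-fold higher in LS and 8 in NS cells, with a median log2 ratio of 0.67. Of the 18 genes used by nearly all cells, 14 and 0 were, with a median of 1.16, which is above that of the ribosomal protein genes at 0.41.

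Cell type markers differed between the groups as well. Of 9 neuron markers 7 were 2-fold higher in LS cells and 0 in NS cells, with a summed level in NS cells from 0 over a median of 65.3 to 1843 FPKM, against a median of 1229 in LS cells. Of 6 excitatory markers 4 were 2-fold higher in LS and 1 in NS cells, and of 5 inhibitory markers 0 and 4, with a median log2 ratio of -2.41. The balance of Slc17a7 and Neurod2 against Gad1 and Gad2 put 6 of the 12 NS cells on the inhibitory side. These had 40.8 ± 15.9 ribosomal protein genes detected, and the 2 on the excitatory side had 73.5 ± 7.78. LS cells had 79.5 ± 2.52 (n = 4) and 80.0 ± 2.53 (n = 30), respectively. NS_2, NS_4, NS_14 and NS_15 were on neither side and had 72, 76, 75 and 19 genes. The 2 excitatory calls are weak. NS_9 had 3.27 against 0.34 FPKM, and NS_8 had markers of both sides and a receptor gene level of 93.2%. Whether detection went with the side was not tested. Astrocyte markers were 2-fold higher in LS cells for 2 and in NS cells for 5 of 7, oligodendrocyte markers for 0 and 5 of 7, and microglia markers for 1 and 3 of 7, beside 33.8% and 38.9% of all genes. Their summed levels reached 1249, 237 and 3181 FPKM in LS cells and 1816, 1136 and 9954 in NS cells, with cells at 0 of each list in both groups. Olig1 had no read in LS cells and Olig2 none in NS cells. Blood genes reached 62063 FPKM in LS_45 and 53.8 in NS cells. Their part in the values of the ribosomal protein genes was not tested.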

How the data were processed

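Single-cell libraries were made by Smart-seq2 from 63 somata. Per the labels and the methods of the study, reads were trimmed with AfterQC, aligned to GRCm38 with STAR 2.5.3a and counted with featureCounts, and the authors deposited FPKM computed with scater, as 1 table of 20183 genes. The table has no molecular identifiers, so intervals and floors cover counting error only. FPKM times exon length moves in whole multiples of 1 constant per cell, and reads were recovered from these steps with GENCODE M21 exon lengths for 12039 genes and lengths solved from the values for 6740. Another 1400 genes stayed unsolved, and 98.4% of values above 0 lay in solved genes. All values under 200 reads came out whole within 0.01. Lengths were accepted or solved by this wholeness, so it is no separate check of the reads. A solved length was the shortest that fitted, and a longer one would give more reads. Of the 87 genes 49 had an annotated and 38 a solved length. The totals behind the FPKM average 1000000 over the 63 cells, so reads are known up to a common factor. Rows of repeated names (4) were left out.

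Cells were removed in the order of the study for low cDNA (by name), under 1000 genes above 1 FPKM, a mitochondrial share above 25%, or a product above 0 of Gfap, S100b and Aqp4, of Olig1, Olig2 and Mbp, or of Slc17a7, Neurod2, Gad1 and Gad2. The mitochondrial limit removed 0 cells here. No 2 cells had identical values, and 0 per-cell columns stayed unused. Groups were compared by means, medians and means of log2(FPKM + 1), and a gene was counted from 2-fold up if its mean reached 1 FPKM in either group. No p-value was computed. The receptor gene level used 1031 genes. Intervals are exact 95% intervals.

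Genes were named when among the 8 highest or 5 lowest in LS cells, among the 5 largest or 5 smallest log2 ratios with at least 4 reads in the lower group, as a relative or its parent, as a stalk gene or Rpsa, or by likeness; Rps15a, Rpl41, Rpl13, Rps3, Rpl23a, Rps27, Rps6, Fos and the examples of the lists were named after their values were seen. Some genes that this rule names are not reported here. The members and lists were chosen with earlier results of these data known. Recovery and ratios were tested on simulated data. Thinning used seed 11; scipy 1.17.1, pandas 2.3.3 and numpy 2.4.6 ran under Python 3.11.15.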

Additional observations from a re-analysis of the deposited data

How the results depend on the processing

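No paired analysis was possible because the labels name no mouse for a cell, and the replicate number of a cell is only its name. The results come from no test. The detection gap kept its direction under all alternatives run. It ran from 17.4 genes among cells with at least 350000 reads (without NS_12) to 30.02 genes with a limit of 5 FPKM. After thinning it was 20.7, over 8 of the 12 NS cells. The levels changed direction under some settings, while by medians summed FPKM stayed higher in LS cells (10917 against 5569). The difference in share turned to -0.13 among cells with a receptor gene level under 10% and to -0.90 among cells with at least 350000 reads, and the log2 ratio of summed FPKM turned to -0.045 over all 63 cells and to -0.28 among cells with at least 350000 reads. The count of genes 2-fold higher in LS cells was 15 as reported, 4 over all 63 cells, 9 in pooled reads, 58 by medians, 75 by means of log2(FPKM + 1) and 81 with a pseudocount of 0.1. The count for NS cells was 4 as reported, 2 with ribosomal protein genes proper only, 10 among cells with at least 350000 reads, and 0 by medians and by both log means. Of all genes, 33.8% were higher in LS and 38.9% in NS cells as reported. By medians these shares were 90.8% and 4.83%, and by means of log2(FPKM + 1) 27.2% and 5.77%. All genes were not counted under the other settings or with 1 cell left out, so those counts give no trait particular to the set.

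Leaving out 1 cell at a time gave 23.7 to 29.1 genes for the detection gap, 0.48 to 1.24 percentage points for the share, 0.18 to 0.60 for the log2 ratio, 14 to 27 and 2 to 4 genes for the counts (27 without NS_4 or NS_14, and 2 without NS_4), 0.21 to 0.26 for the median pair r, and 0.50 to 0.58 for r between detection of the set and of other genes. The limit of 350000 reads and the settings without NS_12 or without LS_39 and LS_43 were chosen after seeing the data. The limits on depth and on the receptor level leave 5 and 3 NS cells. The causes were not tested. Depth in NS cells limits any statement on genes with few reads.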

Other observations

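Copies of these genes with a pseudogene name, of which 15 are listed and none is among the 87, were mostly at low levels. Rpl10-ps3 had 404 reads in 30 of 35 LS cells and 0 reads in the 12 NS cells, where its parent Rpl10 had 2045 reads in 10 cells. Rpl10 shares 91.6% of its stretches of 100 bases with Rpl10-ps3, and how shared reads were counted is not given in the sources used here. Rpl9-ps6 had 394 reads in 30 LS and 55 reads in 6 NS cells. Rpl36-ps3 had 9 reads in 6 LS and 15 reads in 5 NS cells, and the 27 reads of Rpl36-ps4 came from 1 NS cell. These genes were named after their values were seen.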
